A study of Mus musculus with 8 samples.

Results

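The IL-1 family ligands and receptors were followed as 9 genes across single cells from mouse colon tumors: the ligands Il1a, Il1b, Il33 and Il18, the antagonist Il1rn, the decoy receptor Il1r2, and the receptor chains Il1r1, Il1rap and Il1rl1. They were taken by symbol from the 20275 gene symbols in the count tables, and all 9 were listed on all 8 plates. AKP tumor organoids had been engrafted orthotopically, and each plate held sorted cells of 1 mouse, with 4 plates of Zeb1-proficient FibCtrl mice and 4 of FibΔZeb1 mice, whose fibroblasts lose Zeb1. By the labels, FibΔZeb1 mice were positive and FibCtrl mice negative for a Col1a1Cre-ERT2 transgene, with the genotypes Zeb1Fib-deleted and Zeb1Fib-Ctrl, and mice of both groups received a tamoxifen diet. The study's methods instead name a Col1a2-CreERT2 allele on a floxed Zeb1 background for this inducible line, with Cre-negative littermates of both sexes as controls, so recombination was limited to cells with a collagen I promoter active at the time of the diet. Ages were not given in the sources used here. Viable single cells had been gated as EPCAM+, as CD45+ or as negative for both and for CD31, and empty wells had been left as controls.

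IL-1α and IL-1β, encoded by Il1a and Il1b, act through a receptor made of the Il1r1 chain and the shared accessory chain Il1rap, and this signal is known to switch fibroblasts to an inflammatory state. The product of Il1rn occupies Il1r1 without signaling, and Il1r2 binds IL-1 but lacks a signaling domain, so both act as brakes. IL-33 signals through Il1rl1 (ST2) with Il1rap, is stored in the nuclei of stromal and epithelial cells and acts on regulatory T cells, mast cells and innate lymphoid cells, while IL-18 is processed by inflammasomes like IL-1β and acts on T and NK cells. The comparison asked which tumor cells carried the sender, receiver and decoy transcripts, and whether their levels differed with the fibroblast genotype.

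In GRCm38, the build named in the submitters' processing notes, 3 of the receptor genes lie close together on the plus strand of chromosome 1, Il1r2 at chr1:40074079-40125231, Il1r1 at chr1:40225080-40317257 and Il1rl1 at chr1:40429570-40465415. Il1a (chr2:129299610-129309972) and Il1b (chr2:129364570-129371139) are neighbors on the minus strand, 54.6 kb apart, and Il1rn lies on the same chromosome at chr2:24336853-24351494. Il1rap is at chr16:26581704-26730117, Il33 at chr19:29925114-29960718 and Il18 at chr9:50554827-50581840. The antisense gene Il1bos overlaps Il1b and was listed on 0 plates. Whether counting used strand was not given in the sources used here.

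Il1a, Il1b and Il1rn were the 3 members whose levels, summed per plate and cell class, ran most closely together. Their promoters are shown for that reason. RefSeq's GRCm38.p6 table had a promoter for 9 of the 9 members. The 250 bases before each start are printed 5′ to 3′, with matches to the searched motifs in capitals, for Il1a at chr2:129309973-129310222 (minus strand), Il1b at chr2:129371140-129371389 (minus strand) and the first annotated start of Il1rn at chr2:24336610-24336859 (plus strand).
Il1a: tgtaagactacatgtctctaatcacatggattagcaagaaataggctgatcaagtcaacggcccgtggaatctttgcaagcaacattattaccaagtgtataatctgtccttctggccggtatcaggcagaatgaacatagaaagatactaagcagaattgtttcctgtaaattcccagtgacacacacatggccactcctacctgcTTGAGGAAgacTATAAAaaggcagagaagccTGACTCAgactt
Il1b: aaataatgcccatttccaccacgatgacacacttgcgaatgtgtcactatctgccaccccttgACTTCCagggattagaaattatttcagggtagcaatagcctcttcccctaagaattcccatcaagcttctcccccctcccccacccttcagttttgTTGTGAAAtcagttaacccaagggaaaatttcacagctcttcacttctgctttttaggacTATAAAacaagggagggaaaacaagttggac
Il1rn: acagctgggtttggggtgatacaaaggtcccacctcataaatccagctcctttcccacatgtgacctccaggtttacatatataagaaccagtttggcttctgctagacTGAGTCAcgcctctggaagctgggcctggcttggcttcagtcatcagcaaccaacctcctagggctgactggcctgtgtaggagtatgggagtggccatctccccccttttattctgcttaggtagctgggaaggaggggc
A TATA box (TATAAA) began 32 bases before the start of Il1a and 31 before that of Il1b. The letters of an AP-1 site (TGANTCA) began 12 bases before the start of Il1a and 141 before that of Il1rn. The C/EBP letters TTNNNCAA were found 43 bases before the start of Il1a and 91 before that of Il1b, and the PU.1 core GGAAGT 187 bases before that of Il1b. Both strands were searched, and no 2 matches overlapped in these windows. Among 32851 mouse promoters of the same length, 12.4% held TATAAA, 6.75% TGANTCA, 33.3% TTNNNCAA and 19.7% GGAAGT. An NF-kB motif of GGG and TTTCC with 2 bases of any kind between them, held by 1.41% of promoters, matched in none of these 3 windows. It did match 51 bases before a later annotated start of Il1rn, in the window chr2:24345121-24345370, which is not printed. The C/EBP letters matched in that window too, 161 bases before the start. They also matched 81 bases before another later start of Il1rn.

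Of 3072 wells, 384 per plate, 1831 had enough transcripts to be kept, 98 to 294 per plate, and a plate held between 981881 and 5905188 transcripts, with FibCtrl 2 the shallowest. Values are transcripts per 1000000 (CPM) of all nuclear transcripts in the wells summed. Each molecule is counted once at its 3′ end, so that levels were compared between genes without division by length. Clusters were named from marker lists, with the 9 members kept out of the clustering, and the names mean "like that cell type". The report uses 257 neutrophil, 173 macrophage, 119 fibroblast, 455 epithelial and 145 T cell wells, beside smaller classes of 143 B cell, 35 mesothelial, 34 NK or innate lymphoid, 31 dendritic, 29 pericyte or smooth muscle and 11 mast cell wells. Median depth differed widely between classes, with 1889 transcripts in a neutrophil well, 3233 in a T cell well, 8505 in a macrophage well, 22527 in a fibroblast well and 23297 in an epithelial well. The defining markers were present: 10 of 11 neutrophil markers were in the files and summed to 42308 CPM in neutrophil wells, and the 11 fibroblast markers summed to 79348 CPM in fibroblast wells. Another 366 wells, 19.99% of those kept, stayed unnamed. Zeb1 in fibroblast wells was 91.0 and 86.8 CPM on FibCtrl 1 and 4, and 46.7, 49.8, 50.0 and 27.1 CPM on FibΔZeb1 1 to 4. FibCtrl 2 and 3 were at 0 for Zeb1, with only 2 and 6 fibroblast wells, which allows up to 41.2 and 94.6 CPM (3 transcripts).

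Il1b was the most abundant member, with 20629 transcripts in kept wells, and it came from myeloid cells. Neutrophil wells held 19605 ± 7622 CPM (SD, n = 7 plates with at least 10 such wells) and macrophage wells 4415 ± 1221 CPM (n = 6). The lowest neutrophil plate, at 12988 CPM, lay above the highest macrophage plate, at 6118 CPM, and the means differed 4.44-fold. Macrophage wells in turn lay 55.8-fold above T cell wells, the next class, at 79.2 ± 73.6 CPM (n = 7), again without overlap. Neutrophil wells gave 47.1% of all Il1b transcripts and macrophage wells 41.4%, since a macrophage well was the deeper one. The 31 dendritic cell wells reached 3920 CPM when pooled (95% exact Poisson interval 3727 to 4122, which covers counting error only). Fibroblast and epithelial wells pooled were at 31.4 CPM each, B cell wells at 66.3 CPM and pericyte or smooth muscle wells at 43.5 CPM. These low values were alike across classes that differ in type, and the part that free RNA has in them was not tested.

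Il1a, which encodes a ligand active without processing, was likewise a transcript of myeloid wells but at a lower level. It was 1032 ± 509.5 CPM in neutrophil wells (n = 7) and 655 ± 379 CPM in macrophage wells (n = 6), and the plate ranges, 144 to 1501 CPM and 188 to 1175 CPM, overlapped. The next class, T cell wells, was 39.8-fold lower than macrophage wells and did not overlap with them. Il1b exceeded Il1a in every plate and in both classes, by 9.56 ± 6.12-fold in macrophage wells, where 60.1% of the Il1a transcripts lay.

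**Figure D1:**
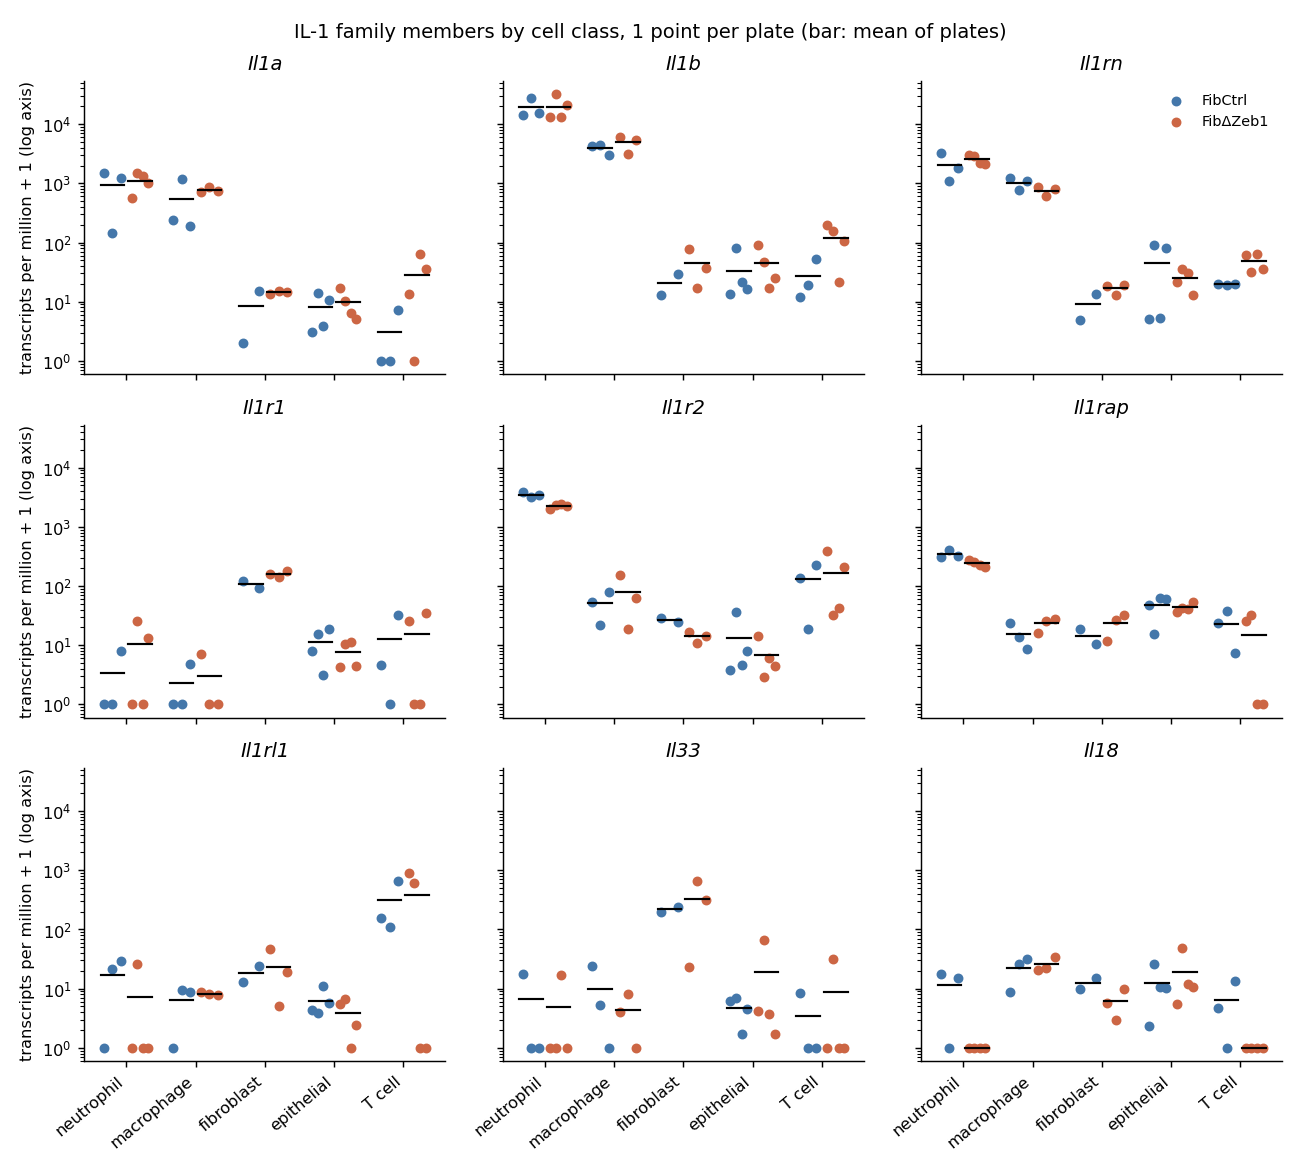
Level of each member in 5 cell classes. Each point is 1 plate (1 mouse) with at least 10 wells of the class, on a log axis of CPM plus 1, colored by genotype, and each bar is the mean of the points; Il1b, Il1rn, Il1r2 and Il1rap are highest in neutrophil wells, Il1r1 and Il33 in fibroblast wells, and Il1rl1 in T cell wells.

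Il33, the alarmin, was the stromal ligand. Fibroblast wells held 196, 242, 21.8, 657 and 308 CPM on FibCtrl 1 and 4 and FibΔZeb1 1, 3 and 4, which gave 285 ± 233 CPM (n = 5). On FibCtrl 4, 84 of the 156 transcripts lay in 1 well, and the level was 123 CPM without it. On FibΔZeb1 3, 1 well held 96 of the 328 transcripts. The plates differed by over an order of magnitude, and the range overlapped with that of epithelial wells, at 11.1 ± 22.5 CPM (n = 8). Mesothelial wells held 48.2% of all Il33 transcripts, but 954 of their 1073 transcripts lay in 1 well of FibΔZeb1 2, and the pooled mesothelial level fell from 958 to 125 CPM without it. That 1 well held 42.9% of the Il33 transcripts of all kept wells. Leukocyte classes were low, for example 4.57 CPM in macrophage and 5.49 CPM in neutrophil wells pooled. Il18 was the scarcest member, with 287 transcripts. It was 23.1 ± 9.21 CPM in macrophage wells (n = 6) and 14.8 ± 14.98 CPM in epithelial wells (n = 8), with overlapping ranges, and 60.9% of its transcripts were epithelial. The macrophage value rested on 43 transcripts and was 13.6 CPM once the richest well of each plate was left out.

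The transcripts of both brakes were concentrated in the cells that carried Il1b. Il1rn was 2358 ± 769 CPM in neutrophil wells and 884 ± 222 CPM in macrophage wells, whose ranges overlapped, and macrophage wells lay 25.3-fold above T cell wells. Epithelial wells, with 11.6% of the Il1rn transcripts, ran from 4.11 to 88.3 CPM between plates. Il1r2 was more restricted than Il1rn. Neutrophil wells held 2774 ± 678 CPM, 18.4-fold above T cell wells (151 ± 136 CPM) and without overlap, and macrophage wells only 63.7 ± 49.2 CPM. Neutrophil wells gave 65.5% of the Il1r2 transcripts, and the dendritic cell wells, at 819 CPM (interval 733 to 915), another 13.3%. Per plate, there were 7.43 ± 3.39 transcripts of Il1b for each one of Il1r2 in neutrophil wells (n = 7) and 106 ± 72.0 in macrophage wells (n = 6). Against the antagonist the classes were closer, with 9.91 ± 7.22 transcripts of Il1b per Il1rn in neutrophil and 5.24 ± 1.78 in macrophage wells.

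The signaling receptor Il1r1 lay in the mesenchyme. Fibroblast wells held 122, 91.5, 157, 139 and 181 CPM on FibCtrl 1 and 4 and FibΔZeb1 1, 3 and 4, in all 138 ± 34.1 CPM, 10.3-fold above the next class and without overlap. Mesothelial wells were higher, at 326 CPM pooled (interval 293 to 361), with 530 CPM on FibCtrl 3, 265 CPM on FibΔZeb1 4 and 137 CPM on FibΔZeb1 2, the plates with 5 or more such wells. Fibroblast and mesothelial wells gave 36.6% and 31.7% of the Il1r1 transcripts, and pericyte or smooth muscle wells were at 72.5 CPM. Neutrophil and macrophage wells, the main carriers of Il1b, held 3 and 5 Il1r1 transcripts in all. At 5.49 and 2.86 CPM these are at or near the smallest level that 3 transcripts give.

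Il1rap, the chain that the IL-1 and IL-33 receptors share, did not follow Il1r1. It was highest in neutrophil wells, at 285 ± 68.3 CPM, 6.42-fold above epithelial wells (44.3 ± 15.1 CPM) and without overlap. In fibroblast wells it was 19.1 ± 9.61 CPM, below Il1r1 in the same wells on all 5 plates. Epithelial wells nevertheless gave 63.0% of the Il1rap transcripts, since they were the most numerous and the deepest. Il1rl1, the IL-33 receptor, was 349 ± 367 CPM in T cell wells, with 156, 108 and 662 CPM on FibCtrl 1, 3 and 4 and 896, 620, 0 and 0 CPM on FibΔZeb1 1 to 4. The zeros allow up to 62.1 and 103 CPM, the level of 3 transcripts on those plates. A few wells set these values: on FibΔZeb1 2, 18 of the 20 transcripts lay in 1 well, and the mean was 166 CPM without the richest well of each plate. Among the small classes, the 11 mast cell wells were highest when pooled, at 1517 CPM (interval 1248 to 1817) with Il1rl1 in 9 of 11 wells. Of these 114 transcripts, 108 lay in the 6 mast cell wells of FibCtrl 3, with 38 in 1 well, so the level is mainly that of 1 mouse.

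Within a class the members differed between clusters, which had been formed without them. Of the neutrophil clusters, the one led by Siglec5 and Mmp9 (103 wells) held the most Il1r2, 3947 CPM, with 18942 CPM of Il1b. The cluster led by Retnlg and S100a8 (70 wells) held the most Il1b and Il1rap, 22187 and 416 CPM, and the least Il1a, 312 CPM. The cluster led by the chemokine gene Ccl3 (84 wells) held the least Il1b and Il1r2, 10717 and 1544 CPM, and the most of the antagonist Il1rn, 3799 CPM. Among macrophage wells, Il1a was 1771 CPM in the cluster led by Mmp12 and Arg1 (40 wells) and 481 CPM in the one led by Lyz2 and Mrc1 (114 wells), at Il1b levels of 4746 and 5213 CPM. These are pooled levels, and plates contributed unequally to the clusters.

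Among fibroblast wells, Il33 was 368 CPM in the cluster led by Dpt (63 wells) and 102 CPM in the one led by Mgp and Tnc (56 wells), whereas Il1r1 was 116 and 150 CPM. On the 2 plates with at least 5 wells in both clusters from FibCtrl mice, Il33 was 313 against 66.7 CPM and 271 against 13.5 CPM, and on FibΔZeb1 3 it was 920 against 398 CPM, each time higher in the Dpt-led cluster. On FibCtrl 4, 1 of these plates, a single fibroblast well held 84 of the 156 Il33 transcripts. T cell wells of the cluster with Foxp3 among its leading genes (47 wells) held 514 CPM of Il1rl1 and 272 CPM of Il1r2, against 180 and 41.8 CPM in the other T cell cluster (98 wells). Of the Il1rl1 transcripts in the second cluster, 39 came from FibΔZeb1 1. An epithelial cluster led by Saa1 (29 wells) held 182 CPM of Il18, and 25 of its wells were from FibΔZeb1 2. Another epithelial cluster, with Wfdc2 among its leading genes, held 94.7 CPM of Il1rn and 36.9 CPM of Il33.

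**Figure D2:**
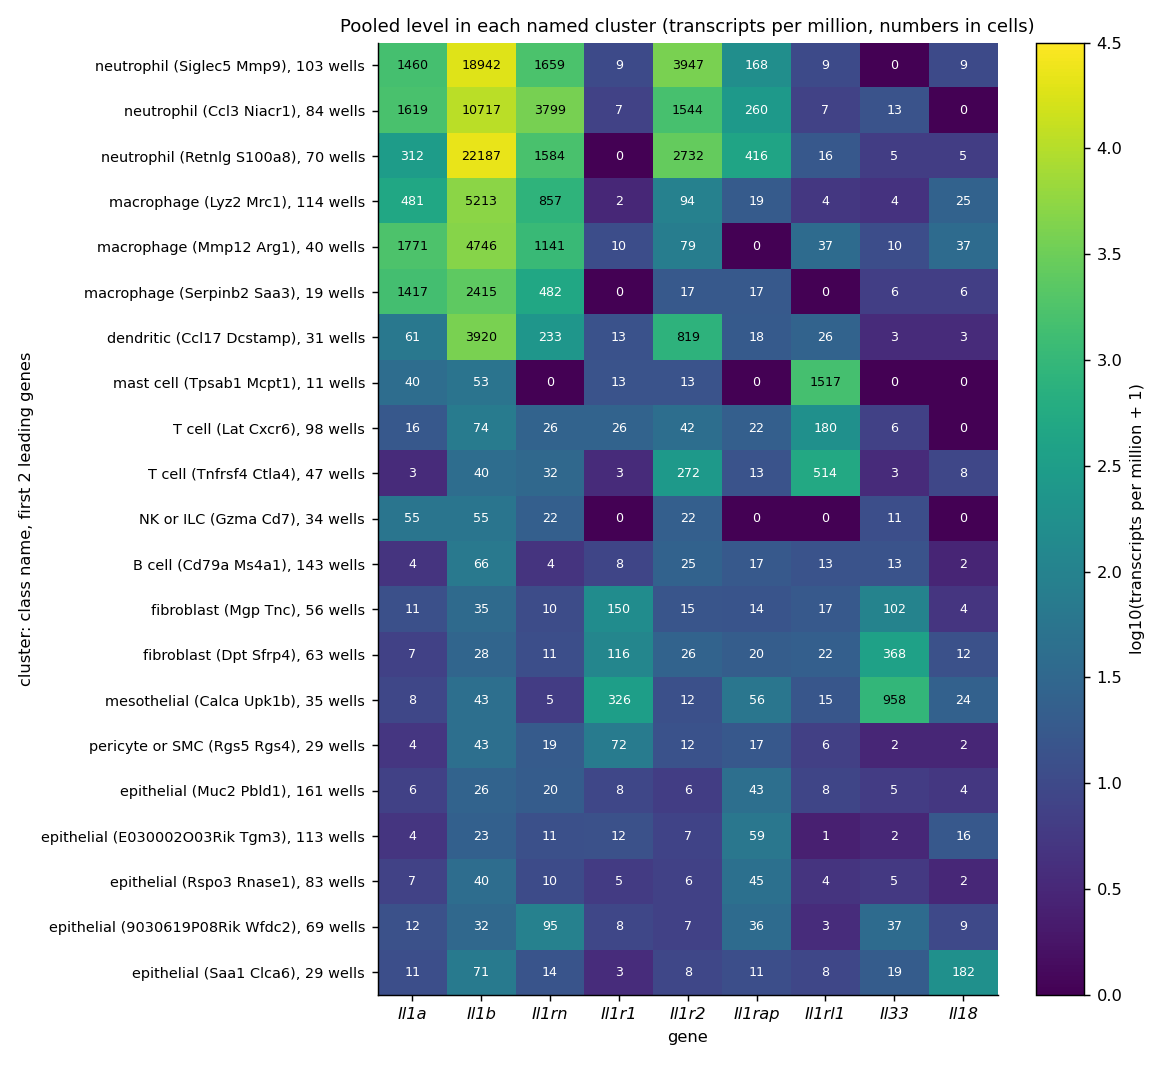
Level of the 9 members in the 21 named clusters. Rows are clusters, grouped by class and labeled with their leading genes, columns are members, color is log10 of CPM plus 1 over the pooled wells, and the number in each cell is the level in CPM; the ligand and brake transcripts fill the neutrophil, macrophage and dendritic rows, and Il1r1 and Il33 the fibroblast and mesothelial rows.

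To set wells of unlike depth side by side, each was thinned to 1000 transcripts, which left out 23 of 257 neutrophil and 9 of 173 macrophage wells. After thinning, Il1b was found in 92.2% ± 6.02 of neutrophil wells (SD, n = 7 plates; 95.2% before thinning) and 69.4% ± 9.69 of macrophage wells (n = 6), against 6.45% ± 7.59 of epithelial wells (n = 8; 46.5% before thinning). T cell wells, which should lack Il1b, gave 7.34% ± 7.69 after thinning (n = 7), and after thinning to 500 transcripts, with all wells kept, the shares were 2.62% ± 1.75 in epithelial and 7.52% ± 7.86 in T cell wells. The part of free RNA in the shares of either class was not tested. Il1r2 was found in 67.7% ± 9.41 of thinned neutrophil wells, Il1rn in 70.6% ± 12.3, Il1a in 25.1% ± 10.1 and Il1rap in 24.4% ± 8.55. At 500 transcripts these shares were 53.2% ± 11.6, 48.3% ± 13.3, 19.6% ± 8.17 and 14.7% ± 3.81, so they hold for the stated depth only. Since 213 of the 234 wells thinned to 1000 held Il1b (91.0%), most wells with a brake held the ligand too, 153 of 160 with Il1r2 and 145 of 158 with Il1rn. Il1r2 was found in 71.8% of the neutrophil wells with Il1b and 33.3% of those without it, and Il1rn in 68.1% and 61.9%. Il1r1 was found in 15.2% ± 6.40 of thinned fibroblast wells (n = 5; 68.4% before thinning) and in 0.592% ± 1.02 of thinned neutrophil wells. Before thinning, 77 of 119 fibroblast wells held Il1r1, 64 held Il33 and 46 held both.

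The genes most like each member were sought over 40 sums of 1 plate and 1 class, among 10795 genes, by Pearson's r of log levels. The sums share plates and depths, so that r is a description. Il1b ran with Wfdc17 (r = 0.966), the neutrophil-attracting chemokine gene Cxcl2 (0.953) and the inflammasome sensor gene Nlrp3 (0.949). Il1a ran with the complement receptor gene C5ar1 (0.948), Igsf6 (0.945) and the Fc receptor gene Fcgr3 (0.939), and Il1rn with Igsf6 (0.950), Cxcl2 (0.949) and Clec4e (0.945). Il1r2 ran with Cass4 (0.873), Snx20 (0.854) and Ccr1 (0.854), and Il1rap with Stfa2l1 (0.849), another ligand gene of the family, Il1f9 (0.835), and Dgat2 (0.832). Apart from this myeloid group, Il1r1 ran with Adam12 (0.892), Kirrel (0.890) and Rhoj (0.887), and Il33 with Kng2 (0.861), Mrgprf (0.849) and Bmper (0.848). Il1rl1 was closest to the T cell checkpoint gene Ctla4 (0.740), Padi2 (0.733) and Tnfrsf4 (0.702), and Il18 to Selenbp1 (0.755), Calml4 (0.674) and Dbi (0.668). Among the members themselves, r was 0.924 for Il1a with Il1b, 0.930 for Il1b with Il1rn, 0.795 for Il1b with Il1r2 and 0.631 for Il1r1 with Il33.

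Genotypes were compared within each class on transcripts summed per plate, by edgeR's quasi-likelihood test over all genes with Benjamini-Hochberg adjustment, at an adjusted p of 0.05. Of 45 pairs of member and class, 24 passed edgeR's filter on low counts and were tested, 0 were called, and 0 had an unadjusted p below 0.05. The lowest unadjusted p was 0.0704 and adjusted p-values lay between 0.972 and 0.9999. The background was as sparse: the test called 0.0941% of 1063 genes in neutrophil, 0.0% of 4406 in macrophage, 0.0124% of 8065 in fibroblast, 0.0% of 10364 in epithelial and 0.0% of 1113 in T cell wells. At an unadjusted p below 0.05 stood 40, 171, 409, 192 and 31 of these genes. DESeq2 on the same sums also called 0 members in each class, with an unadjusted p below 0.05 for 1 member in neutrophil and 1 in T cell wells. Among tested members, 3 of 5 log2 changes lay above 0 in neutrophil, 3 of 4 in macrophage, 6 of 7 in fibroblast, 3 of 6 in epithelial and 2 of 2 in T cell wells, with medians of 0.02, 0.39, 0.58, 0.18 and 0.38, beside medians over all genes of 0.02, -0.02, 0.00, 0.01 and 0.00. With 2 to 4 plates per genotype, these p-values set a difference between genotypes against the spread between plates, 1 mouse each, and counting error. A p above the threshold does not show equal levels.

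In neutrophil wells Il1b was 14431, 27951 and 15677 CPM on FibCtrl 2 to 4 and 12988, 31840, 13213 and 21136 CPM on FibΔZeb1 1 to 4. Both genotypes had plates near the low and the high end, and the log2 change, FibΔZeb1 against FibCtrl, was 0.02 (SE 0.51, adjusted p = 0.995). The share of neutrophil wells in the Retnlg-led cluster was 30.8%, 80.0% and 15.5% on FibCtrl 2 to 4 and 31.6%, 55.6%, 23.7% and 11.3% on FibΔZeb1 1 to 4. It was largest on the plate highest in Il1b of each genotype, FibCtrl 3 and FibΔZeb1 2, but smallest on FibΔZeb1 4, the next highest. The part of this share in the Il1b values was not tested. Il1a ran from 144 to 1478 CPM in FibCtrl and from 555 to 1501 CPM in FibΔZeb1 plates, with a log2 change of 0.21 (SE 0.60). Il1rn ran from 1112 to 3258 CPM and from 2091 to 3055 CPM, with a log2 change of 0.30 (SE 0.42).

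The decoy Il1r2 and the accessory chain Il1rap were the 2 of 5 tested members whose plates did not overlap between genotypes in neutrophil wells, where 4.61% of all tested genes did not. Il1r2 was 3812, 3194 and 3381 CPM in FibCtrl and 2036, 2349.7, 2384 and 2264 CPM in FibΔZeb1 mice, so that every FibΔZeb1 plate lay below every FibCtrl plate. The means were 3462 ± 317 and 2258.5 ± 157 CPM, and the log2 change was -0.64 (SE 0.34, adjusted p = 0.978, edgeR), which is not a call. The difference of the means, FibΔZeb1 minus FibCtrl, was -1619 CPM within the first flow cell (1 FibCtrl and 2 FibΔZeb1 plates) and -963.7 CPM within the second (2 and 2). Without the richest well of each plate the values were 3108, 2969 and 3173 CPM against 1496, 1944, 2239 and 2092 CPM. The 10 neutrophil markers summed to 38166 to 100892 CPM in the neutrophil wells of FibCtrl and 17701 to 55654 CPM in those of FibΔZeb1 mice, and the 11 fibroblast markers to 814 to 7209 CPM and 899 to 4807 CPM. The part of either in the Il1r2 values was not tested.

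Il1r2 was also followed in each neutrophil cluster, on plates with at least 5 of its wells. In the Retnlg-led cluster it was 5646, 2906 and 2584 CPM on FibCtrl 2 to 4 and 753, 1711, 2032 and 2197 CPM on FibΔZeb1 1 to 4, again without overlap. These sums held 8, 16 and 9 wells against 6, 10, 14 and 6 wells. The share of all genes without overlap in them was not computed. On FibCtrl 2, 67 of the 225 Il1r2 transcripts of all neutrophil wells lay in 1 well. In the Siglec5-led cluster Il1r2 was 4455 CPM on FibCtrl 4 and 3474 and 2794 CPM on FibΔZeb1 3 and 4. In the Ccl3-led cluster the genotypes overlapped, with 2036 and 1222 CPM on FibCtrl 2 and 4 and 2333, 3059, 1212 and 335 CPM on FibΔZeb1 1 to 4. Il1rap was 305, 412 and 316 CPM in FibCtrl and 277, 249.6, 223 and 211 CPM in FibΔZeb1 neutrophil wells. Its means were 344 ± 58.7 and 240.3 ± 29.4 CPM, with a log2 change of -0.55 (SE 0.38, adjusted p = 0.978, edgeR), and they rested on 151 transcripts in all.

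**Figure D3:**
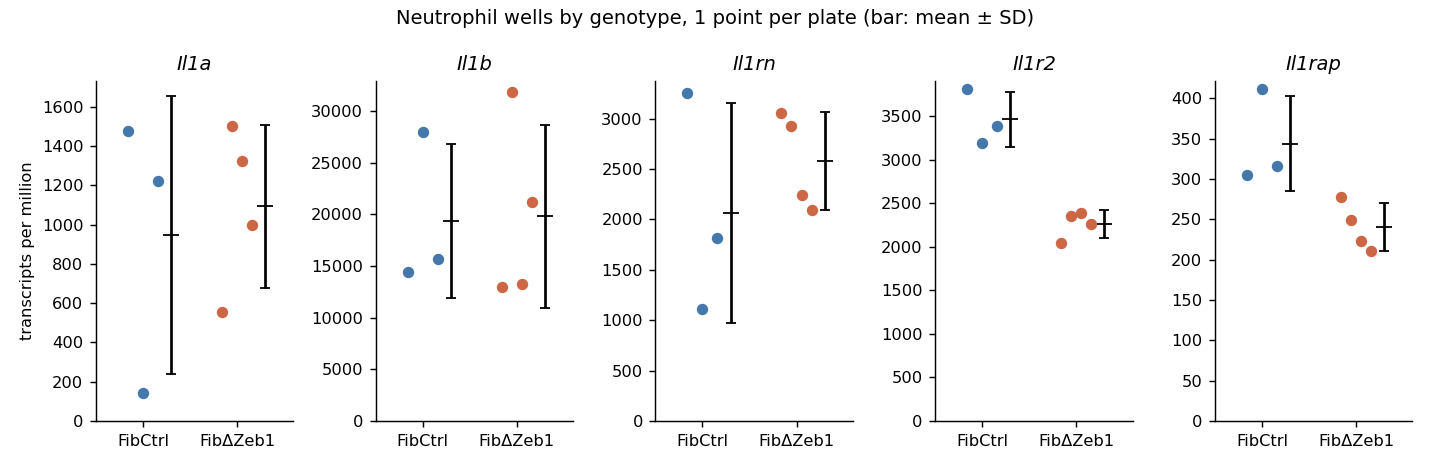
The 5 members tested in neutrophil wells. Each point is 1 plate, in CPM, for FibCtrl (n = 3) and FibΔZeb1 (n = 4), with the mean and SD; the genotypes overlap for Il1a, Il1b and Il1rn, and all FibΔZeb1 points lie below the FibCtrl points for Il1r2 and Il1rap, neither of which passed the test.

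Macrophage wells gave 0 of 4 tested members without overlap, where 9.19% of all tested genes did not overlap. Il1b was 4247, 4425 and 3041 CPM on FibCtrl 1, 3 and 4 and 6118, 3186 and 5476 CPM on FibΔZeb1 1, 3 and 4, a log2 change of 0.31 (SE 0.31). Il1rn was 1214, 770.5 and 1075 CPM against 853, 606 and 788 CPM, a log2 change of -0.46 (SE 0.26, adjusted p = 0.998, edgeR), and here only the lowest FibCtrl plate fell within the FibΔZeb1 range. Il1a was 238, 1175 and 188 CPM against 719, 858 and 749.5 CPM. On FibCtrl 1, 24 of the 31 Il1a transcripts lay in 1 well, and on FibΔZeb1 4, 63 of 112. Without the richest well of each plate the values were 64.0, 941 and 153 CPM against 635, 721 and 348 CPM. FibCtrl 3, the plate with the most Il1a, had 34.3% of its 35 macrophage wells in the Mmp12-led cluster and 14 wells in one led by Serpinb2 and Saa3, the 2 clusters richest in Il1a, and FibCtrl 1 had 91.7% in the Lyz2-led one. The log2 change of Il1r2 in macrophage wells was 0.74 (SE 0.68), and it turned to -0.51 without FibΔZeb1 1.

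In fibroblast wells, the cells targeted by the Cre, Il1r1 and Il1r2 were the 2 of 7 tested members whose plates did not overlap, where 18.7% of all tested genes did not, with 2 FibCtrl and 3 FibΔZeb1 plates. Il1r1 was 122 and 91.5 CPM in FibCtrl and 157, 139 and 181 CPM in FibΔZeb1 mice, so that the FibΔZeb1 plates lay higher. The log2 change was 0.56 (SE 0.30, adjusted p = 0.9999, edgeR). On FibΔZeb1 3, 44 of the 69 Il1r1 transcripts lay in 1 well. Without the richest well of each plate the values were 111 and 78.4 CPM against 119, 73.0 and 191 CPM, which overlap, and the log2 ratio of the genotype means fell to 0.43.

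Il1r2 was low in fibroblast wells, at 27.7 and 23.3 CPM in FibCtrl and 15.6, 10.0 and 13.6 CPM in FibΔZeb1 mice, from 66 transcripts over all plates. On FibCtrl 4, 7 of the 15 transcripts lay in 1 well. Without the richest well of each plate the values were 22.3 and 13.4 CPM against 8.92, 6.62 and 6.37 CPM, again without overlap. The log2 change was -0.97 (SE 0.46, adjusted p = 0.998, edgeR), the lowest unadjusted p of all members. Il33 did not separate the genotypes: the lowest and the highest plate, 21.8 and 657 CPM, were both FibΔZeb1, with FibCtrl at 196 and 242 CPM. Its log2 change was 0.58 (SE 1.003), and it was -0.45 without FibΔZeb1 3. Il33 was lowest on FibΔZeb1 1, which had 11.1% of its fibroblast wells in the Dpt-led cluster, where the other 4 plates had 50.0% to 79.2%. Il1b in fibroblast wells was 11.9 and 27.9 CPM against 77.8, 16.003 and 36.1 CPM, with overlap. Its log2 change of 1.199 (SE 0.69, adjusted p = 0.9999, edgeR) was the highest of the 7 and not a call, and the part of free RNA in it was not tested. The plate highest in it, FibΔZeb1 1, was also highest in summed macrophage markers, with 274 CPM beside 44.0 to 97.6 CPM on the other 4.

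**Figure D4:**
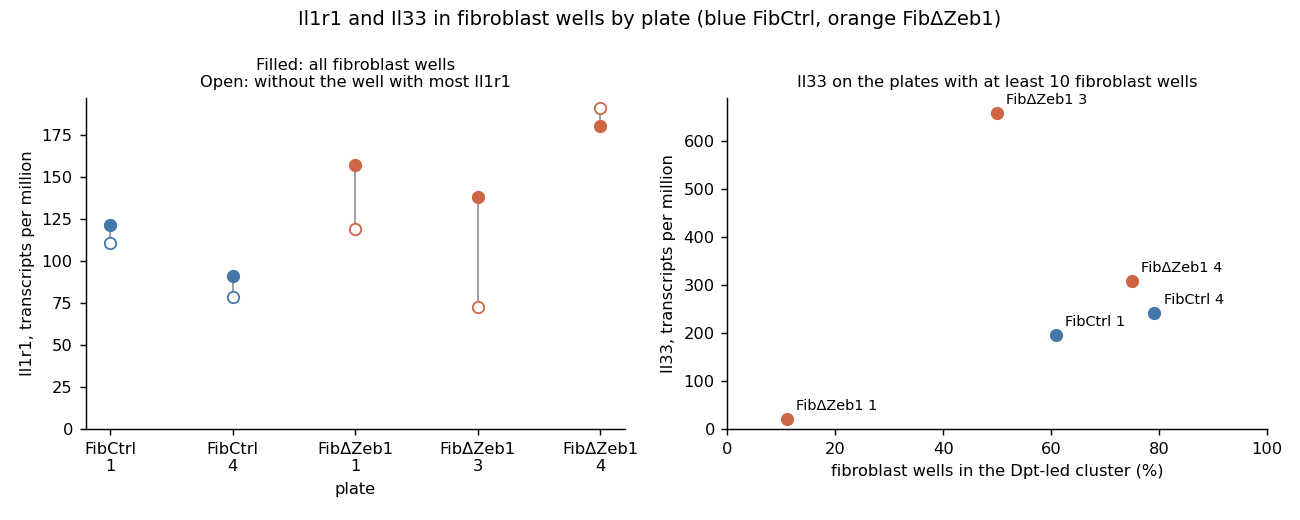
Il1r1 and Il33 in fibroblast wells. The Il1r1 panel gives each plate's level in CPM with all wells and without the well richest in Il1r1, and the Il33 panel plots each plate's level against the percentage of its fibroblast wells in the Dpt-led cluster (n = 5 plates, colored by genotype); the Il1r1 values of the genotypes separate with all wells and overlap without the richest ones, and the plate lowest in Il33 has 11.1% of its wells in that cluster.

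In epithelial wells, which include the tumor cells, 0 of 6 tested members separated the genotypes, where 1.45% of all tested genes did. Il1rap was the steadiest, at 47.6, 14.7, 61.9 and 60.3 CPM on FibCtrl 1 to 4 and 36.0, 42.0, 40.2 and 52.0 CPM on FibΔZeb1 1 to 4. The shallowest plate, FibCtrl 2, lay lowest, and the log2 change was -0.13 (SE 0.33). Il1rn was 4.11, 88.3, 4.37 and 78.5 CPM against 20.3, 34.5, 29.2 and 11.8 CPM, and on FibCtrl 4, 66 of the 136 transcripts lay in 1 well. Il18 was 1.37, 24.97, 9.47 and 9.27 CPM against 4.58, 47.7, 11.03 and 9.71 CPM, high on both plates numbered 2. Il1b was 12.3, 80.8, 20.4 and 15.6 CPM against 90.3, 45.8, 16.1 and 24.3 CPM. The 2 highest plates were those where epithelial wells held the most neutrophil markers (FibCtrl 2, 1199.8 CPM) or macrophage markers (FibΔZeb1 1, 318 CPM), and the part of such transcripts was not tested.

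In T cell wells, 0 of 2 tested members separated the genotypes, where 5.12% of all tested genes did. The log2 change of Il1rl1 was 0.36 (SE 0.88, adjusted p = 0.981, edgeR), between 2 FibΔZeb1 plates above 600 CPM and 2 at 0. The share of T cell wells in the Foxp3 cluster on those plates was 27.8%, 9.09%, 33.3% and 18.2% for FibΔZeb1 1 to 4, and 41.3%, 26.3% and 43.5% for FibCtrl 1, 3 and 4. Its part in the Il1rl1 values was not tested. Il1r2 was 137, 18.1 and 228 CPM on FibCtrl 1, 3 and 4 and 393, 31.0, 41.4 and 206 CPM on FibΔZeb1 1 to 4, with a log2 change of 0.40 (SE 0.69). Summed fibroblast markers in T cell wells ran from 813 to 4344 CPM in FibCtrl and from 619 to 3419 CPM in FibΔZeb1 mice, beside 3172 to 5110 CPM of T cell markers, and neutrophil markers from 74.2 to 241 CPM. Their part in the 2 receptor levels was not tested.

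The rest of the pathway was taken as 4 lists: receptor signaling (20 genes), processing and release of the cytokines (15), other ligands and receptors of the family (16, of which 11 were in the files) and genes known to respond to IL-1 (20). Many were too low to test: 14 list genes passed the filter in neutrophil, 32 in macrophage, 36 in fibroblast, 39 in epithelial and 6 in T cell wells, where all 6 were receptor signaling genes. In each of the 5 classes 0 of them were called by edgeR. An unadjusted p below 0.05 was found for 2 of 14 in neutrophil wells (3.76% of all genes tested there), 2 of 32 in macrophage (3.88%), 2 of 36 in fibroblast (5.07%), 1 of 39 in epithelial (1.85%) and 0 of 6 in T cell wells (2.79%). In neutrophil wells, where Il1b was highest, the inflammasome sensor Nlrp3 was at 1010.4 CPM against 267 CPM in macrophage wells, whereas its adaptor Pycard was at 20.1 against 138 CPM and the IL-1β-cleaving protease gene Casp1 at 34.7 against 69.7 CPM. The IL-36 ligand gene Il1f9 was at 485 CPM in neutrophil wells. The IL-18 receptor gene Il18r1 was at 129 CPM in T cell wells.

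Fibroblast wells had 14 receptor signaling genes tested. Their median log2 change was -0.40 and 1 of 14 lay above 0, beside a median of 0.00 over all genes. The lowest unadjusted p-values were those of Nfkbia, an NF-kB inhibitor and target (1276 and 1180 CPM in FibCtrl against 650.4, 245 and 862 CPM in FibΔZeb1 mice), and Irak3, a brake on the receptor complex (62.3 and 124 against 24.9, 70.1 and 45.2 CPM). The log2 changes were -1.07 (SE 0.49) and -1.003 (SE 0.48), with adjusted p-values of 0.998 and 0.999. Nfkbiz, a nuclear regulator of NF-kB targets, was 463 and 502 against 405, 155 and 299 CPM, a log2 change of -0.76 (SE 0.41, adjusted p = 0.9999, edgeR). Of the 16 responsive genes tested, 5 lay above 0, with a median of -0.36. Saa3, an acute-phase gene induced by IL-1, was 876 and 833 CPM in FibCtrl against 6.22, 0 and 76.9 CPM in FibΔZeb1 fibroblast wells. It did not overlap between genotypes, as was so for 18.7% of all tested genes there. Its log2 change was -5.34 (SE 1.17, adjusted p = 0.495, edgeR), and it passed the threshold in 2 alternative fits, with the replicate number as a block and with no gene filter. Over the alternatives it ran from -7.93, without FibΔZeb1 4, to -4.49. The cytokine gene Il11 was at 1.98 and 3.10 against 21.8, 143 and 13.6 CPM, from 2 and 2 against 14, 72 and 3 transcripts. Its log2 change was 4.55 (SE 1.21, adjusted p = 0.731, edgeR), and 2.84 to 4.93 over the alternatives, lowest with the replicate block. The matrix protease gene Mmp3 was 20.8 and 60.6 against 0, 2.00 and 27.1 CPM, a log2 change of -2.69 (SE 1.17, adjusted p = 0.980, edgeR), which ran from -5.26 without FibΔZeb1 4 to -1.59 without FibCtrl 4.

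In neutrophil wells, 4 of the 5 responsive genes tested lay above 0, with a median log2 change of 0.62, beside 0.02 over all genes. Saa3 lay in the other direction there than in fibroblast wells, at 84.7, 61.7 and 98.2 CPM on FibCtrl 2 to 4 against 254, 325, 87.6 and 597 CPM on FibΔZeb1 1 to 4, with FibΔZeb1 3 inside the FibCtrl range. These levels came from 3 to 48 transcripts per plate. Its log2 change was 1.86 (SE 0.62, adjusted p = 0.978, edgeR), and the difference between the classes was not tested. Icam1, which encodes an adhesion molecule, ran from 103 to 379 CPM in FibCtrl and from 347 to 746 CPM in FibΔZeb1 neutrophil wells, a log2 change of 1.06 (SE 0.45, adjusted p = 0.978, edgeR). In macrophage wells Saa3 was 245, 16617 and 4920 CPM on FibCtrl 1, 3 and 4 against 682, 601 and 6917 CPM on FibΔZeb1 1, 3 and 4. The log2 change was -1.46 (SE 1.21), and it turned to 0.13 without FibCtrl 3. The cytokine gene Lif was 15.3, 340.4 and 127 against 51.8, 7.15 and 33.6 CPM in macrophage wells, a log2 change of -2.33 (SE 0.82, adjusted p = 0.998, edgeR) that was -1.18 without FibCtrl 3. In epithelial wells the prostaglandin synthase gene Ptgs2 was 1.46 to 8.69 CPM in FibCtrl and 11.04 to 28.8 CPM in FibΔZeb1 mice. These levels came from 16, 3, 2 and 15 transcripts on FibCtrl 1 to 4 and 17, 46, 28 and 26 on FibΔZeb1 1 to 4. Ptgs2 did not overlap between genotypes, as was so for 1.45% of all tested genes there. Its log2 change was 1.74 (SE 0.52, adjusted p = 0.9998, edgeR), and the part of free RNA in it was not tested.

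Among genes of cytokine processing, Nlrp3 and Casp4 in neutrophil wells had log2 changes of -0.22 (SE 0.59) and 0.19 (SE 0.56). In macrophage wells, Capn2, which encodes a subunit of the calpain that cleaves IL-1α, was 45.9, 50.3 and 69.1 CPM against 63.9, 207.6 and 101 CPM, a log2 change of 1.09 (SE 0.46, adjusted p = 0.998, edgeR). Casp4 and the pore-forming Gsdmd in macrophage wells had log2 changes of 0.49 (SE 0.32) and 0.44 (SE 0.34).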

How the data were processed

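Cells of 8 colon tumors, 1 mouse per plate, had been sequenced by SORT-seq, with CEL-Seq2 libraries on 384-well plates. By the study's methods, reads were aligned with BWA to the GRCm38 transcriptome, and per the labels the processing notes also name Cell Ranger 2.1.1. The deposited values are expected counts, the authors' estimate of transcripts per gene and well after correction of molecular identifiers, so that 84.0% to 89.1% of the values above 0 were whole numbers. They were summed and rounded to whole counts before testing. Spike-in and mitochondrial rows were left out of totals. Per-well gate assignments were not analysed here.

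Wells with at least 500 transcripts and a mitochondrial share within 3 median absolute deviations were kept, 98 to 294 per plate, with 2047 to 10830 transcripts at the median. Doublets were not called, since single cells had been sorted, but 33 fibroblast wells with at least 2 transcripts of Ptprc or Epcam were set aside. Clusters came from Leiden (leidenalg 0.10.2) on 2000 variable genes without the members and pathway genes, 20 components and 15 neighbors, and were named from marker lists: a cluster needed a marker score of 0.5 and 3 detected markers. Well numbers repeat on all plates and mark no shared cells. Genotypes were compared over plates with at least 10 wells of a class by edgeR 4.0.16 (TMM, quasi-likelihood) in R 4.3.3, with DESeq2 1.42.0 as an alternative. Likeness was Pearson's r of log2(CPM + 10) among genes with at least 200 transcripts. The intervals are exact Poisson intervals at 95%, for counting error only, and a count of 0 was given the limit of 3 transcripts. The script was tested on simulated counts.

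The members, the lists and the limits for naming clusters were chosen with earlier results of these data known, and leaving out the richest well was added after the data were seen. All 9 members were described in every class. From the pathway lists the text names, by rule, called genes and the 3 with the lowest unadjusted p in fibroblast wells (receptor signaling and responsive genes) and in neutrophil and macrophage wells (processing); Pycard, Casp1, Il1f9 and Il18r1 were named for their levels, and Saa3, Icam1, Lif and Ptgs2 outside fibroblast wells for their changes, after these were seen. In epithelial wells the deviations of same-numbered plates from the mean of their genotype correlated at r = 0.110 to 0.534. Plates with different numbers were not compared, so whether the replicate numbers pair the plates was not settled. In neutrophil, macrophage and T cell wells at least 1 pair was at or below 0.1. Fibroblast wells had only 2 pairs (r = 0.339 and 0.195), too few to tell. All main fits, also the epithelial one, left the replicate block out. With the block, edgeR called 0 genes in epithelial wells, and 349 stood at an unadjusted p below 0.05, against 192 without it. The flow cell, read from the file names, held replicates 1 and 2 or 3 and 4 of both genotypes.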

Additional observations from a re-analysis of the deposited data

Results flagged for a closer look

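In 25 groups of 4 plates, 4 held a plate far from the other 3. The limit used gives about 1 in 20 for independent, normally distributed values. Members measured on the same plates are not independent, so that rate is only a rough guide here. All 4 flagged values were in epithelial wells and on a plate numbered 2. Only epithelial wells had 4 plates in both genotypes, and neutrophil and T cell wells had 4 for FibΔZeb1 alone. Macrophage and fibroblast wells had fewer in both genotypes and could not be flagged. Il18 on FibΔZeb1 2 was 47.7 CPM, with the other FibΔZeb1 plates at 4.58 to 11.03 CPM, and Il33 on the same plate was 66.6 CPM, with the others at 0.693 to 3.27 CPM. On FibCtrl 2, Il1b was 80.8 CPM beside 12.3 to 20.4 CPM, and the decoy Il1r2 was 35.2 CPM beside 2.74 to 6.95 CPM. FibΔZeb1 2 held 25 of the 29 wells of the Saa1-led epithelial cluster, which had the highest Il18, and FibCtrl 2 was the shallowest plate. Neutrophil markers summed to 1199.8 CPM in the epithelial wells of FibCtrl 2 and to 82.8 to 296 CPM on the other FibCtrl plates. The part of these features in the values was not tested.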

How the results depend on the processing

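In all 5 classes 0 members were called under each of the alternatives that could be fitted: DESeq2, no gene filter, flow cell as covariate, classes from marker sums, 1000 transcripts per well, no mitochondrial filter, 20 wells per plate, the replicate number as a block and each plate left out. A minimum of 20 wells could not be fitted in fibroblast and T cell wells, and without FibΔZeb1 1 no member passed the filter in T cell wells. In macrophage wells that minimum left only FibCtrl 3 to set against FibΔZeb1 1 and 3. Over these settings the log2 change ran from -0.77 to -0.55 for Il1r2 and from -0.84 to -0.40 for Il1rap in neutrophil wells, and from 0.34 to 0.79 for Il1r1 and -1.17 to -0.78 for Il1r2 in fibroblast wells.

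The sign of other changes, none of them called, turned under some settings, and the cause was not tested. With flow cell as covariate it was -0.79 for Il1rl1 in T cell, -0.68 for Il33 in fibroblast and -0.0168 for Il1b in neutrophil wells. With 20 wells per plate it was -0.62 for Il1a in macrophage wells, where FibCtrl 3 was then the only FibCtrl plate. With that minimum it was -0.38 for Il1b and -0.13 for Il1rn in neutrophil wells. Il1b there was -0.039 with DESeq2 and -0.046 with no gene filter. With the replicate block it was -0.16 for Il1rl1 in T cell and -1.21 for Il33 in fibroblast wells. With each plate left out, the range was -0.0055 to 1.53 for Il1rl1 in T cell wells. In epithelial wells it was -0.30 to 1.56 for Il18, -0.055 to 0.92 for Il1a, -0.15 to 1.52 for Il1b and -0.38 to 0.0234 for Il1rap. In fibroblast wells it was -0.89 to 0.99 for Il1rl1 and -0.45 to 1.15 for Il33, and in macrophage wells -0.51 to 1.26 for Il1r2 and -3.54 to 0.13 for Saa3. In neutrophil wells it was -0.19 to 0.79 for Casp4, -0.31 to 0.71 for Il1a, -0.41 to 0.42 for Il1b, -0.0173 to 0.83 for Il1rn and -0.96 to 0.33 for Nlrp3.

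The replicate block called 0 members and 52 of all genes in fibroblast wells, against 1 without it. Saa3 was then called there (log2 change -4.94, adjusted p = 0.00437, edgeR). Only replicates 1 and 4 had fibroblast plates of both genotypes, so that fit compared the genotypes within 2 pairs. Without the gene filter Saa3, Il11 and Mmp3 were called in fibroblast wells (adjusted p = 6.07e-32, 1.03e-09 and 0.00432, edgeR). In macrophage wells Saa3 and Lif were called without that filter (adjusted p = 0.00045 and 3.43e-05, edgeR). Calls with 20 wells per plate are not given for macrophage wells, since FibCtrl 3 was then the only FibCtrl plate. Over all genes, fibroblast calls numbered 23 with DESeq2, 17 with flow cell as covariate, 295 with no gene filter and 0 or 1 with a plate left out. Macrophage calls rose from 0 to 1 with DESeq2 and 43 with no gene filter. Neutrophil calls rose from 1 to 18 with no gene filter and 6 without FibCtrl 2, and epithelial calls from 0 to 1 with DESeq2. T cell calls rose from 0 to 15 with no gene filter, 2 with classes from marker sums and 1 each with 1000 transcripts and no mitochondrial filter. The median change of all genes was 0.16 in neutrophil and 0.13 in T cell wells with DESeq2, and 0.12 and -0.32 with no gene filter. Of 103 recomputed levels, 102 moved by less than the spread between plates, and Il18 in macrophage wells fell to 13.6 CPM without the richest well of each plate, an alternative chosen after seeing the data. Many of these settings left out 1 plate, which can never move a mean by as much as the spread (SD) between plates. For those settings the outcome was fixed in advance. Shares of wells depended on the thinned depth, with 10 of 18 recomputed ones moved by more than that spread. At 500 in place of 1000 transcripts the neutrophil shares fell to 85.8% for Il1b, 53.2% for Il1r2, 48.3% for Il1rn and 14.7% for Il1rap. Unthinned they were 77.6% for Il1r2 and 38.4% for Il1rap there, 68.4% and 57.9% for Il1r1 and Il33 in fibroblast, 18.9% for Il1rl1 in T cell and 14.3% for Il18 in macrophage wells. Shallow neutrophil wells and few fibroblast plates limit these comparisons.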
